A study of Mus musculus with 2 samples.

Results

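The miR-221 and miR-222 cluster is a pair of microRNA genes, Mir221 and Mir222, and its small RNAs were followed here through a nuclear and a cytoplasmic library of mouse dendritic cells. Its members were the listed sequences that matched the sense strand of either annotated hairpin over their full length, or with up to 3 unmatched bases at the 3′ end. There were 409 such sequences among 538100 in all, 196 from Mir221 and 213 from Mir222. None of those matched over their full length also matched another transcript. Sequences with unmatched bases were members only where no transcript matched them in full, so for them that absence was set by the rule. With unmatched bases allowed, they were compared with other small RNAs, where none matched equally well, and not with long transcripts. No listed sequence matched the antisense strand of either hairpin.

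The cells of both libraries were C57BL/6 bone marrow cells cultured for 7 days with GM-CSF and IL-4, labelled as bone marrow-derived dendritic cells and stimulated with LPS, a bacterial cell wall component. Swollen cells were spun, and RNA came from the pellet that contained the nuclei (nuclear library) or from the remaining cytoplasmic fraction (cytoplasmic library), with 1 library of each and no unstimulated cells. The pellet was not purified further as far as the labels say, so it is a nuclear fraction and not pure nuclei. The nuclear library held 2000019 reads and the cytoplasmic library 2041383 reads of 18 to 39 nt.

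A microRNA is cut from a long primary transcript in 2 steps. The enzyme Drosha cuts the hairpin out in the nucleus, and Dicer removes its loop in the cytoplasm, which leaves a 5p and a 3p arm, of which the more abundant is usually loaded into an Argonaute protein. The loaded arm finds target mRNAs mainly through its seed, bases 2 to 8. miR-221 and miR-222 share a seed and are known for repressing the cell cycle inhibitor p27 (Cdkn1b) and the stem cell factor receptor Kit, and both have been described as responding to LPS in macrophages.

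The hairpins lay on the minus strand of the X chromosome (GRCm38), Mir222 at chrX:19146893-19146971 and Mir221 at chrX:19146294-19146388. They were 504 bases apart and in no other annotated gene. The mature 3p arms carry the results below, and RefSeq (GRCm38.p6) lists them as follows, with the seed in capitals.
mmu-miR-221-3p: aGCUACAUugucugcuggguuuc
mmu-miR-222-3p: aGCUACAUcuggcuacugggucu
mmu-miR-221-5p: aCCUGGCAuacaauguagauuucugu
The 3p arms are both 23 nt long. Their first 8 bases are identical, and the rest sets them apart. Among 1679 mature mouse names in that table, 3 have this seed, and the other one, miR-1928, had 0 reads in both libraries. The table gives no mature 5p arm for Mir222, so its 5p reads are named here by their arm of the hairpin.

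The whole Mir221 hairpin is shown because its reads lay in 3 places, the arms and a stretch before the 5p arm. Capitals mark the annotated arms.
Mir221 hairpin: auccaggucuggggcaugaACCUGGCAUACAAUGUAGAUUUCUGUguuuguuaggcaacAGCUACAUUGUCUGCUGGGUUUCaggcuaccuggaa
The next 4 sequences are reads as listed, the 2 commonest of each 3p arm. They show that the commonest form of miR-221-3p ends 1 base before the RefSeq form, while that of miR-222-3p ends with it.
miR-221-3p, 22 nt: agctacattgtctgctgggttt
miR-221-3p, 23 nt: agctacattgtctgctgggtttc
miR-222-3p, 23 nt: agctacatctggctactgggtct
miR-222-3p, 22 nt: agctacatctggctactgggtc

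Both 3p arms, the abundant products of the cluster, were lower in the nuclear library. miR-221-3p had 11832 nuclear and 35272 cytoplasmic reads, or 5916 and 17278 RPM (reads scaled to 1000000 listed reads). The ratio of nuclear to cytoplasmic RPM was 0.342 (95% interval 0.335 to 0.350). miR-222-3p had 9537 nuclear and 21871 cytoplasmic reads, or 4768 and 10714 RPM, with a ratio of 0.445 (0.434 to 0.456). The intervals of both lay below 1 and did not overlap each other, so within these libraries miR-221-3p was the more cytoplasmic of the pair beyond counting error. With 1 library in each group there is no replicate check and no test, the ratios describe these 2 libraries, and since no molecular identifiers separate PCR copies, every interval covers counting error only. RPM is a share of a library's listed reads and not an amount per nucleus or cell. In bulk RNA, fewer nuclei or cells that hold a microRNA and less of it in each cannot be told apart.

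The 5p arms were scarce. miR-221-5p had 201 nuclear and 307 cytoplasmic reads, or 100.5 and 150.4 RPM, with a ratio of 0.668 (0.557 to 0.801). Its interval lay below 1 and above those of both 3p arms. miR-222-5p had 3 nuclear and 22 cytoplasmic reads, or 1.5 and 10.8 RPM, below the minimum of 50 reads set for a call, and its ratio of 0.139 had an interval from 0.0267 to 0.463.

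**Figure D1:**
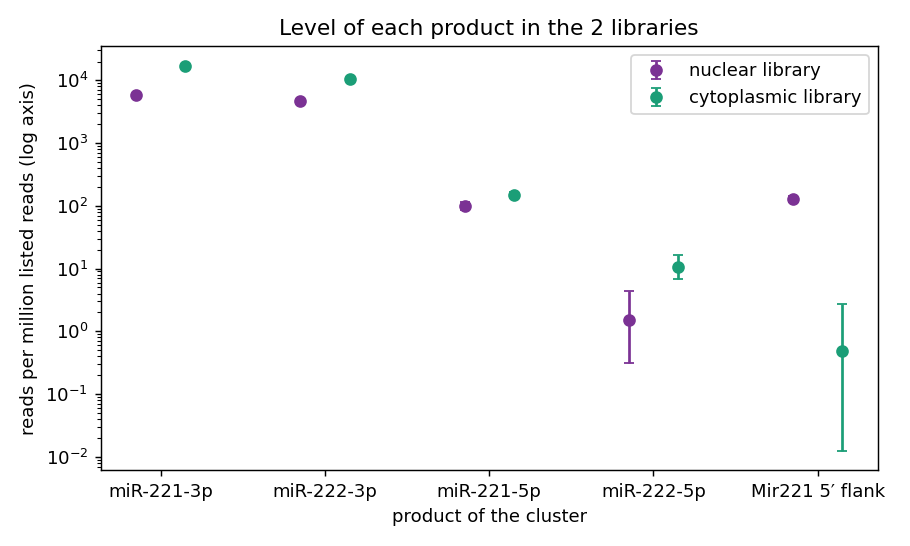
Level of each product of the cluster in RPM of all listed reads (log axis), nuclear library in purple and cytoplasmic library in green, with exact 95% Poisson intervals of the read counts. On this scale the 4 arms sit lower in the nuclear library, though miR-221-5p does not when scaled to microRNA reads, and the Mir221 5′ flank sits far higher there, at 129.5 against 0.49 RPM.

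Together the cluster took 1.08% of nuclear and 2.82% of cytoplasmic reads. Among microRNA arms ranked by reads, miR-221-3p stood 16th in the nuclear and 13th in the cytoplasmic library, and miR-222-3p 19th and 16th. In the nuclear library miR-221-3p lay between miR-423-5p at 5976 RPM and miR-24-3p at 5316 RPM, and its level was also near that of miR-155-5p (6109 RPM), a microRNA strongly induced by LPS. In the cytoplasmic library miR-221-3p at 17278 RPM lay between miR-378a-3p at 17850 RPM and let-7d-5p at 16334 RPM, while miR-155-5p was at 4410 RPM. miR-222-3p lay next to miR-185-5p in both libraries, at 4768 against 4749 RPM in the nuclear one and at 10714 against 9963 RPM in the cytoplasmic one.

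As a share of all listed reads, many microRNAs were lower in the nuclear library. Of 202 microRNA arms with a total of 50 reads or more, 59 (29.2%) were lower in the nuclear library by at least 2-fold with an interval that excluded 1, and 19 (9.41%) were higher by the same rule. Of the 3 cluster arms with enough reads, miR-221-3p and miR-222-3p were called lower and miR-221-5p was not called. On the log2 scale with a pseudocount of 0.5 reads, the ratios were -1.55 for miR-221-3p, -1.17 for miR-222-3p and -0.58 for miR-221-5p, against a median of -0.66 over the 202 arms. Among the 72 arms with at least 1000 reads, 27 (37.5%) were called lower, 7 had a lower ratio than miR-221-3p and 18 a lower ratio than miR-222-3p. An entry of any class sums the reads of a microRNA arm, of another small RNA, or of the fragments of a longer gene such as an mRNA. Among 978 such entries with 50 reads or more, 10.3% were called lower and 44.4% higher. MicroRNAs as a class made up 40.5% of the nuclear library and 74.8% of the cytoplasmic one, and snoRNA reads, which mark the nucleolus, 9.04% and 0.289%. Fragments of longer transcripts made up 9.06% and 4.82%. Reads that matched no transcript also counted in each total, and they were a larger share of the nuclear library. A share of one library therefore depends on what else that library holds. Scaled to the microRNA reads of each library instead, the ratio was 0.632 for miR-221-3p and 0.822 for miR-222-3p, still below 1 but no longer 2-fold, while that of miR-221-5p was 1.23. On that scale the balance over the 202 arms turned round, with 9 lower, 37 higher and a median log2 ratio of 0.22, whereas TMM scaling gave 144 lower and 11 higher.

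**Figure D2:**
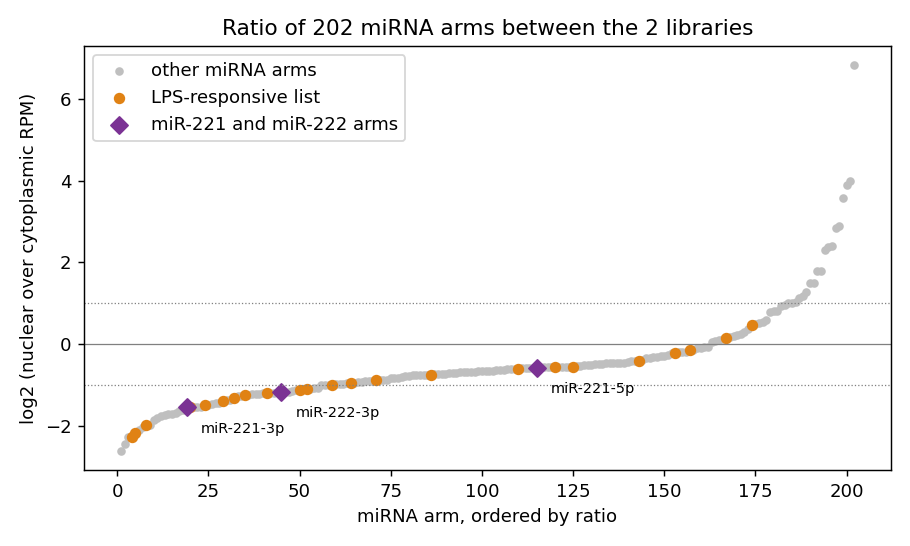
The log2 ratio of nuclear to cytoplasmic RPM for the microRNA arms with at least 50 reads, in ascending order, with dotted lines at 2-fold. The 3p arms of the cluster (purple diamonds) stand at places 19 and 45 from the low end and miR-221-5p at place 115, and 24 of 26 arms of the LPS-responsive list (orange) lie below 0, as do 162 of all 202 arms.

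The arms nearest to miR-221-3p in ratio, among those with at least 1000 reads, were miR-146b-5p at 0.343, miR-146-5p (miR-146a in common usage) at 0.354, miR-33-5p at 0.358, miR-140-3p at 0.327 and miR-342-3p at 0.320. The interval of miR-140-3p was apart from that of miR-221-3p and the other 4 overlapped it. miR-146a and miR-146b are LPS-responsive microRNAs of myeloid cells. The arms nearest to miR-222-3p were miR-298-5p at 0.448, miR-101b-3p at 0.442, miR-21a-3p at 0.434, miR-30e-5p at 0.457 and miR-103-3p at 0.429, all with overlapping intervals. This likeness is one of 2 libraries only.

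Of 26 arms on a list of LPS-responsive microRNAs, 14 were called lower, 0 higher and 12 neither, with a median log2 ratio of -1.05, beside 59 lower of 202 arms (29.2%) and a median of -0.66 over all of them. Both arms of a listed hairpin counted separately. The 26 also include the reads shared by miR-27a-3p and miR-27b-3p (ratio 0.419, called lower), beside those of miR-27b-3p alone. Shared reads can come from miR-27a, which was not on the list. Scaled to microRNA reads, 3 of the 26 were lower and 2 higher, with a median of -0.17. Without the 3 arms of the cluster, 12 of 23 were lower and the median was -1.0. The list ran from miR-27b-5p at a ratio of 0.207 to miR-155-5p at 1.39 (1.35 to 1.42), and only miR-27b-5p, miR-301-5p and miR-21a-5p had a lower ratio than miR-221-3p. miR-155-5p and miR-221-3p had almost the same nuclear level, 6109 and 5916 RPM, and differed in the cytoplasmic library, at 4410 and 17278 RPM. The list was drawn up with earlier results of these data known and without unstimulated cells to compare, so no response to LPS was measured here.

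The 2 hairpins, which lie at neighbouring sites, gave unequal numbers of 3p reads. Whether the amounts of the 2 RNAs differed was not tested. In the nuclear library there were 1.24 (1.21 to 1.27) reads of miR-221-3p for each read of miR-222-3p, and in the cytoplasmic library 1.61 (1.59 to 1.64). The intervals did not overlap, and this ratio does not depend on how the libraries are scaled to each other. The 5p arm made up 1.67% (1.45 to 1.92) of miR-221 arm reads in the nuclear and 0.863% (0.769 to 0.964) in the cytoplasmic library. For miR-222 the shares were 0.0314% (0.00649 to 0.0919) and 0.10% (0.0630 to 0.152), which overlapped. Over 38 microRNAs with both arms measured, the minor arm's share was higher in the nuclear library for 10, lower for 10 and within overlapping intervals for 18, so the nuclear excess of the miR-221 minor arm is one of 2 directions seen about equally often.

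The 5′ ends, which set the seed, were nearly uniform in both libraries. The commonest 5′ end held 99.5% of nuclear and 99.6% of cytoplasmic miR-221-3p reads, and 99.6% and 99.5% of miR-222-3p reads, in both arms the end RefSeq gives. For miR-221-5p it held 92.5% (88.0 to 95.8) of nuclear and 94.5% (91.3 to 96.7) of cytoplasmic reads, and most of the rest, 14 nuclear and 17 cytoplasmic reads, began 1 base earlier. miR-222-5p reads were split over 2 starts, with 3 and 11 reads at the later one and 0 and 11 reads at the one before it.

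The 3′ ends varied far more. Of miR-221-3p reads, 47.2% of nuclear and 49.2% of cytoplasmic ones were 22 nt long and 40.5% and 39.9% were 23 nt long. miR-222-3p was mostly 1 base longer, with 48.4% and 47.3% at 23 nt and 24.3% and 26.9% at 22 nt. Reads of 20 nt or shorter made up 2.36% (2.09 to 2.65) of nuclear and 1.33% (1.22 to 1.46) of cytoplasmic miR-221-3p, and their ratio of nuclear to cytoplasmic RPM was 0.606 (0.521 to 0.704), against 0.339 (0.332 to 0.346) for longer reads. For miR-222-3p the short share was 6.94% (6.44 to 7.47) and 6.62% (6.29 to 6.96), with overlapping intervals. Among 70 abundant arms the short share was higher in the nuclear library for 19, lower for 8 and overlapping for 43, and the nuclear over cytoplasmic fold of this share in miR-221-3p, 1.77, ranked 3rd. The medians over these arms were 11.9% nuclear and 9.08% cytoplasmic, so the short share of miR-221-3p lay below the median in both libraries.

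**Figure D3:**
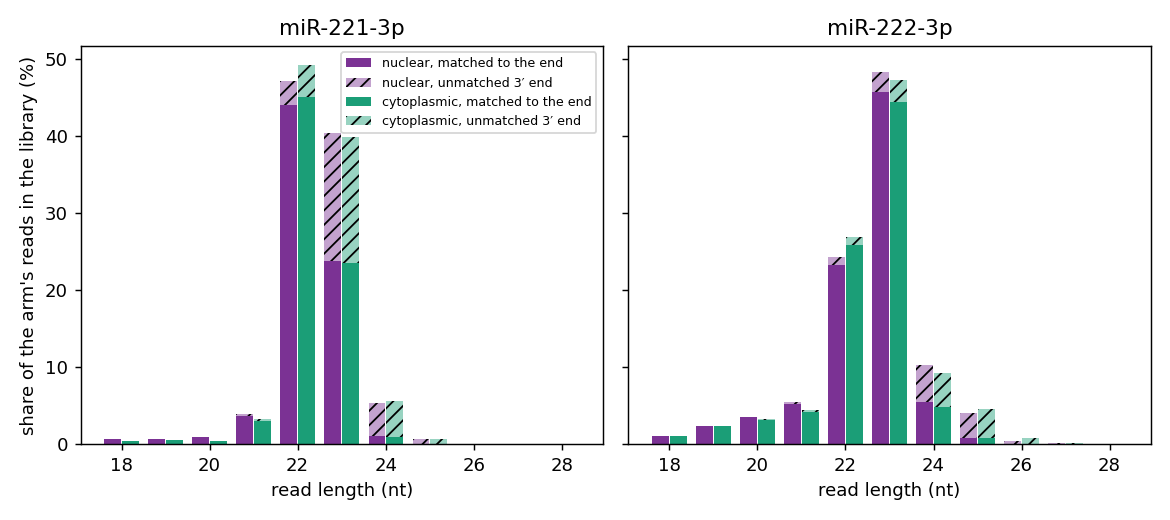
Share of each 3p arm's reads by read length in the nuclear (purple) and cytoplasmic (green) library, with reads whose 3′ end did not match the hairpin hatched. The length profiles of the 2 libraries nearly coincide, miR-221-3p peaks at 22 nt and miR-222-3p at 23 nt.

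**Figure D4:**
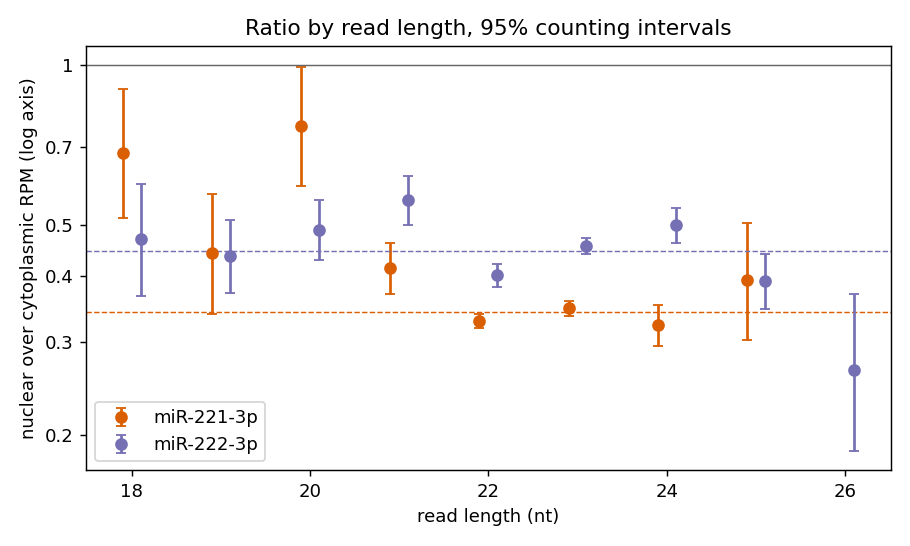
Ratio of nuclear to cytoplasmic RPM (log axis) by read length for lengths with at least 50 reads, with exact 95% intervals and a dashed line at each arm's overall ratio. miR-221-3p lies at 0.683, 0.441, 0.767 and 0.413 for 18, 19, 20 and 21 nt and between 0.323 and 0.348 for 22 to 24 nt, so its ratio does not fall evenly with length. miR-222-3p lies between 0.391 and 0.556 for 18 to 25 nt and at 0.265 (0.187 to 0.370) for 26 nt.

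Bases added after cutting, mostly A or U, are a known feature of microRNA 3′ ends. Unmatched 3′ ends made up 25.1% (24.3 to 25.9) of nuclear and 26.1% (25.7 to 26.6) of cytoplasmic miR-221-3p reads, and 12.5% (11.9 to 13.2) and 13.4% (13.0 to 13.9) of miR-222-3p reads. Both pairs of intervals overlapped. The medians over the 70 arms were 16.1% and 15.8%, so miR-221-3p lay above them, 19th and 20th of 70, and miR-222-3p below, 46th and 43rd. Ends of A alone made up 11.4% of nuclear and 11.6% of cytoplasmic miR-221-3p reads and ends of T alone, which stand for U in the RNA, 9.03% and 9.0%. The commonest tailed forms were these, with the added base in capitals.
miR-221-3p with A: agctacattgtctgctgggtttA
miR-221-3p with T: agctacattgtctgctgggtttT
The form with A had 911 nuclear and 2716 cytoplasmic reads and the form with T 889 and 2528. Their ratios of 0.342 and 0.359 had intervals that held 0.334, the ratio of the untailed 22 nt form.

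The share counted as tailed differed with where the matched part of the read ended. An added base equal to the next hairpin base is counted as matched, so it is missed. For miR-221-3p that base was T after 21 nt, C after 22 nt and A after 23 nt, so shares at different ends do not count the same tails. Of miR-221-3p reads whose match ended after 21 nt, 48.5% (45 to 52.0) of nuclear and 54.6% (52.5 to 56.7) of cytoplasmic ones carried a tail, after 22 nt 30% and 29.6%, and after 23 nt 4.52% and 4.31%. For miR-222-3p the highest share was also after 21 nt, with 19.5% (16.4 to 22.8) nuclear and 29.6% (27.1 to 32.1) cytoplasmic. At this end the nuclear share lay below the cytoplasmic one for both arms, with intervals that did not overlap for miR-222-3p and that narrowly did not for miR-221-3p. The same held for miR-221-3p after 19 nt (9.47% against 25.8%) and 20 nt (26.8% against 42.2%). It also held for miR-222-3p after 24 nt (13.7% against 20.1%), and at the other ends measured the intervals overlapped.

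Of the 10 forms of miR-221-3p with at least 1% of its reads in a library, all 10 had an interval below 1, with ratios from 0.115 to 0.411, and the same held for the 10 forms of miR-222-3p, from 0.402 to 0.557. The lowest was a form of miR-221-3p that differs from the hairpin at T20G, counted from 1 at its 5′ end, with the changed base in capitals.
miR-221-3p, T20G: agctacattgtctgctgggGtt
It had 48 nuclear and 426 cytoplasmic reads, 0.406% and 1.21% of the arm, and a ratio of 0.115 (0.0835 to 0.155). A changed base and an added G cannot be told apart from the sequence.

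The stretch before the 5p arm of Mir221 behaved in the opposite way. Small RNAs that lie directly beside a microRNA arm are known as microRNA-offset RNAs. Inside the annotated hairpin 4 sequences covered this stretch, with 37 nuclear reads and 0 cytoplasmic reads. Against a floor of 3 reads they were 12.6-fold higher in the nuclear library, with the lower end of the interval at 3.99. Most reads began before the annotated hairpin, so all listed sequences that held hairpin bases 2 to 15 were counted as well, a step chosen after these reads were seen. There were 17, with 259 nuclear reads and 1 cytoplasmic read, 129.5 and 0.49 RPM, a ratio of 264 (47.0 to 10481). The commonest are shown with the hairpin's bases in capitals and the bases before it in lower case.
24 nt: tgaacATCCAGGTCTGGGGCATGA
23 nt: tgaacATCCAGGTCTGGGGCATG
19 nt: ATCCAGGTCTGGGGCATGA
The 24 nt form had 144 nuclear reads and 1 cytoplasmic read, 55.6% of the nuclear ones, the 23 nt form 25 and 0, and the 19 nt form 20 and 0. The bases before the hairpin are those of the listed sequences and were not checked against a genome, and none of the sequences with such bases matched a transcript.

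The 3′ ends of these flank reads met the start of the 5p arm. Of the 259 nuclear reads, 207 (79.9%) ended on hairpin base 19, and the commonest miR-221-5p began on base 20. The flank had 1.29 times as many nuclear reads as miR-221-5p itself. No listed sequence ended on the corresponding stretch before the 5p arm of Mir222. Both loops are shorter than the shortest listed sequence, 18 nt, so reads lying wholly in a loop could not be seen.

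Of 246 hairpins whose 5p arm begins on base 15 or later, 26 had flank reads, and 24 of these had more nuclear than cytoplasmic reads. Counted for every hairpin alike were sequences that lay in the flank inside the hairpin, or that held its first base and ended between 3 bases before and 1 base after the first base of the 5p arm. Mir221 had the most, 253 nuclear reads and 1 cytoplasmic read. Next came Mir326 with 53 and 0, Mir652 with 51 and 5 and Mir21a with 41 and 5. Without Mir221 the other flanks had 219 nuclear and 17 cytoplasmic reads, a ratio of 13.1 (8.03 to 23). This lay below the interval given above for the Mir221 flank, which rests on the count chosen after its reads were seen. Most of the 17 came from Mir652, Mir21a and Mir16-1 (5, 5 and 3), while Mir326 had 0. Near-absence from the cytoplasmic library was thus not particular to Mir221.

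**Figure D5:**
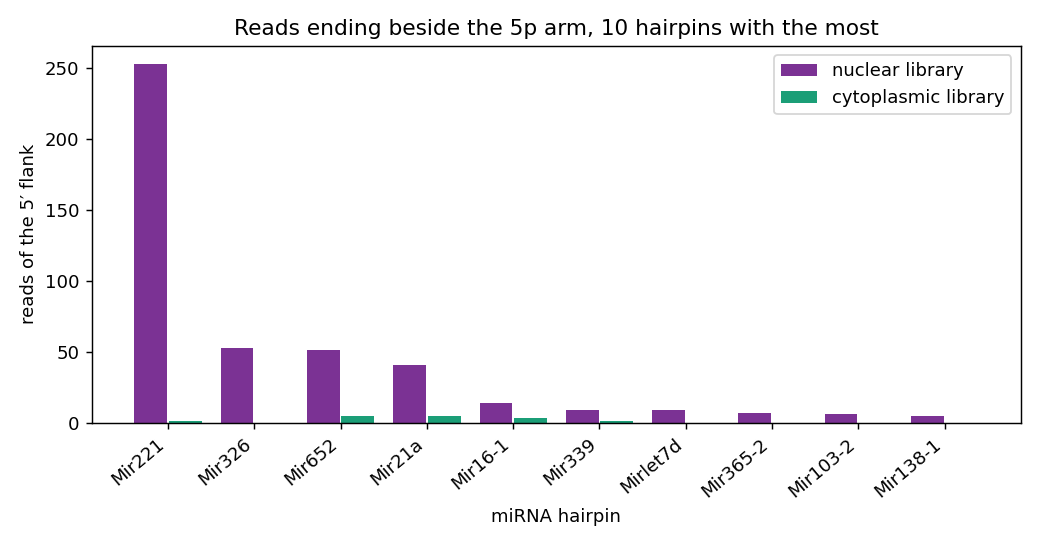
Reads that end beside the 5p arm, for the 10 hairpins with the most nuclear reads, nuclear library in purple and cytoplasmic library in green. The Mir221 flank has 253 nuclear reads, above 53 for Mir326, and 1 cytoplasmic read.

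The nearest annotated gene on the same strand was Gm14636, a non-coding transcript at chrX:19156981-19167241 that ends 10009 bases before Mir222 in the direction of transcription. It had 23 nuclear reads and 0 cytoplasmic reads over 15 sequences. Against a floor of 3 reads it was 7.83-fold higher in the nuclear library, with the lower end of the interval at 2.36. Of 1847 long genes with 15 to 35 reads, 49 (2.65%) had no cytoplasmic read. Whether Gm14636 and the hairpins are parts of one transcript was not tested. The next gene along, Gm26652, had 0 reads in both libraries.

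Pairing to bases 2 to 8 of the shared seed, with an A opposite base 1 (ATGTAGCA), was searched in the longest annotated 3′ UTR of 12 genes described elsewhere as targets, on the sense strand. It was present in 6 of the 12, Cdkn1b, Cdkn1c, Kit, Bbc3, Bmf and Ets1, and in 3.50% of 21028 genes with a 3′ UTR. Counting also the shorter matches ATGTAGC and TGTAGCA, which overlap it, 10 of 12 had a match, against 15.6% of all genes, and Icam1 and Smarca4 had none. The sites in the cell cycle inhibitors Cdkn1b and Cdkn1c, in Kit (the first of 2) and in the pro-apoptotic gene Bbc3 (Puma) show the match in capitals.
Cdkn1b: aaaagcattggATGTAGCAttgcgcaatt
Cdkn1c: acctttcgttcATGTAGCAggaaccggag
Kit: atgggagatatATGTAGCAagactagaaa
Bbc3: ttttctgcaccATGTAGCAtactggactg
A match describes letters and not a working site, and the 12 genes were chosen from what is known of the family. Fragments of their mRNAs gave 133 nuclear and 94 cytoplasmic reads in all, and none of the 12 reached 50 reads, so no level of a target could be read from these libraries.

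The labels were checked against marker RNAs. Markers of the nuclear fraction (4 of 5 with reads) summed to 44115 nuclear and 1288 cytoplasmic RPM, with Snord14c at a ratio of 56.9, Neat1 at 15.4 and Malat1 at 6.04. The 3 mitochondrial markers, which belong outside the nucleus, were present in the pellet and summed to 2484 nuclear and 4024 cytoplasmic RPM. The ratio was 0.780 (0.732 to 0.832) for mt-Rnr1, 0.892 (0.840 to 0.948) for mt-Rnr2 and 0.354 (0.333 to 0.378) for the mitochondrial tRNA fragments, so both mitochondrial rRNAs had a higher ratio than either 3p arm of the cluster. All 8 dendritic and myeloid mRNAs had fragments, 358 nuclear and 493 cytoplasmic RPM in sum. Singly they went both ways, with ratios from 0.238 for Lyz2 to 2.20 for Ccr7. Of 21 markers of other cells, 13 had reads, summing to 284 nuclear and 54.9 cytoplasmic RPM, a higher sum in the nuclear library. Of these, miR-122-5p (hepatocytes) gave 287 nuclear and 24 cytoplasmic reads and miR-1a-3p (muscle) 108 and 7. Smooth muscle and stromal markers gave 157 and 72, of which miR-143-3p 99 and 46, Col1a1 49 and 5 and Acta2 5 and 13. Endothelial markers gave 10 and 3 and erythroid ones 0 and 2. Of the mast cell markers Kit gave 5 and 4, while Cpa3 and Mcpt4, like Alb and both globin mRNAs, were at 0. The part of carry-over between fractions and of other cells in the levels of the cluster was not tested.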

How the data were processed

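The authors deposited 1 table that lists each distinct sequence with a value per library in RPM, that is, per 1000000 listed reads. Per the submitters' processing notes, CASAVA and the mm10 build were used, while trimming, length limits and filters are not stated in those notes. The column names differ in a final N or C, read as nuclear and cytoplasmic. Dividing by the value of 1 read (0.5 RPM nuclear, 0.49 RPM cytoplasmic) made 100% of non-zero values whole within a tolerance of 0.1 read, and these whole reads were used.

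Sequences were matched to GENCODE vM21 transcripts on the sense strand over their full length. Those without such a match were then compared with the annotated small and structural RNAs alone, mitochondrial and ribosomal RNAs included. There, up to 3 unmatched 3′ bases were allowed, with at least 18 matched nt. Fragments of mRNAs and other long transcripts were therefore counted from full-length matches only. Ratios are nuclear over cytoplasmic RPM with exact conditional 95% intervals, and shares have Clopper-Pearson intervals. A call needed a 2-fold ratio (pseudocount 0.5 reads), an interval without 1 and 50 reads over both libraries. With 1 library per group, no residual degrees of freedom are left for edgeR's quasi-likelihood test on the recovered reads, and no p-value was computed. Where a library had no read, the fold used a floor of 3 reads per library.

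The members and lists were chosen with earlier results of these data known. Named were both arms, forms with at least 1% of an arm's reads, hairpin reads outside the arms, the 5 arms of at least 1000 reads nearest in ratio, the nearest of the 3 arms ranked above and below, the LPS-responsive list, 12 described targets and the neighbouring genes. The flank count that takes in bases before the hairpin was added after seeing the data. Tools were Python 3.11.15, scipy 1.17.1, pandas 2.3.3, R 4.3.3, edgeR 4.0.16 and DESeq2 1.42.0.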

Additional observations from a re-analysis of the deposited data

How the results depend on the processing

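Scaling moved the ratios most. TMM factors (edgeR), median of ratios (DESeq2 size factors) and scaling to microRNA reads moved every log2 ratio by -0.63, -0.73 and 0.88, and gave miR-221-3p ratios of 0.221, 0.206 and 0.632, miR-222-3p ratios of 0.287, 0.268 and 0.822, and miR-221-5p ratios of 0.432, 0.402 and 1.23. miR-221-5p was thus called lower under the first and second and lay above 1 under the third. Under these scalings 144, 150 and 9 microRNA arms were called lower and 11, 11 and 37 higher, and 22, 22 and 3 of 26 LPS-responsive arms were lower, with 2 higher under the third. With a minimum of 10 reads 91 arms were lower and 36 higher, and with 200 reads 39 and 3. The most abundant sequence of each arm alone gave ratios of 0.334 (miR-221-3p), 0.459 (miR-222-3p), 0.930 (miR-221-5p) and 0 (miR-222-5p, 0 nuclear reads). With it, miR-221-3p over miR-222-3p was 1.19 in the nuclear library, and 5p shares were 1.37% nuclear and 0.495% cytoplasmic for miR-221 and 0% and 0.0413% for miR-222. Full-length matches alone gave 1.06 nuclear and 1.38 cytoplasmic reads of miR-221-3p per miR-222-3p read, miR-221 5p shares of 2.07% and 1.09%, and a cytoplasmic miR-222 5p share of 0.0422%. With at most 1 unmatched base, tailed shares were 20% nuclear and 19.997% cytoplasmic for miR-221-3p and 6.55% and 6.95% for miR-222-3p. Without substitutions, an alternative chosen after seeing the data, they were 24.2% and 24.8%, and 11.2% and 12.3%. Of 92 alternatives in all, 46 moved a value beyond its interval or a count by over 1.5 times. Reversal was looked for only in the level ratios of miR-221-3p, miR-222-3p and miR-222-5p and in miR-221-3p over miR-222-3p, and none was found. Shares, counts and the miR-221-5p ratio could not be labelled reversed. No paired analysis was possible because each group has 1 library. Precision for miR-222-5p is limited by 25 reads.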
